A study of Mus musculus with 39 samples.

Results

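Mice with AE9a leukaemia to which miR-126 had been added were compared with mice whose AE9a leukaemia carried a miR-126 knockout, at the first passage through recipient mice. The comparison used the 3 arrays of each arm, 6 of the 39 arrays of the series, and took all 22180 genes measured. AE9a is a truncated splice form of AML1-ETO (RUNX1-RUNX1T1), the fusion made by the t(8;21) translocation of acute myeloid leukaemia, and both arms carried it. One arm is named AE9a+miR-126 in the labels and the other miR-126KO+AE9a, so the 2 arms differ in the gain and in the loss of the microRNA at once. An arm with AE9a alone (3 mice of the same passage) and 3 normal controls of the first transplant gave reference levels, and the same 2 miR-126 arms at passages 2, 3 and 4 (3 mice per arm and passage) gave comparisons on other mice. Every array held RNA of CD45.1+ cells, the transplanted donor cells, which were sorted from the marrow of recipients at the end stage of disease. The labels give no age, sex, donor or vector, and do not say whether same-numbered mice share a donor, so the spread between mice measures these recipients and may hold less than the spread between independent leukaemias. In bulk RNA of this kind, fewer cells of a type and less RNA per cell cannot be told apart.

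MicroRNAs are short RNAs that pair through their seed with messenger RNAs and lower their stability and translation. The gene for miR-126 lies within Egfl7, a gene of endothelial cells, and the microRNA is also high in blood stem cells and in leukaemias with core binding factor fusions. Type I interferons act through a receptor at the cell surface and induce a broad set of antiviral genes, many of which carry a short shared DNA element before their start. Myeloid cells are strong users of the pathway.

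The mature sequences of the microRNA that was manipulated and of 4 microRNAs whose probe sets differed between the arms are shown with the seed, bases 2 to 8, in capitals (RefSeq, build GRCm38.p6). The 4 fell outside the rule for named genes and were chosen after their values were seen. Those of miR-221 and miR-222 share the seed GCUACAU, and the other 3 seeds each occur once among the 5.
mmu-miR-126a-3p: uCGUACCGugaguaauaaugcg
mmu-miR-221-3p: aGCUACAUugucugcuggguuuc
mmu-miR-222-3p: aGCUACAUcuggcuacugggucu
mmu-miR-146a-5p: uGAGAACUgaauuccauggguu
mmu-miR-425-5p: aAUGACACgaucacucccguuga
The mature miR-126a-3p lies at chr2:26591402-26591423 on the plus strand. The hairpins of Mir221 (chrX:19146294-19146388) and Mir222 (chrX:19146893-19146971) neighbour each other on the minus strand, that of Mir146 is at chr11:43374397-43374461 on the minus strand, and that of Mir425 at chr9:108568777-108568861 on the plus strand.

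A probe set that the platform assigns to Mir126a and Egfl7 together read 8.48, 8.27 and 8.18 (log2 expression) in the 3 mice with added miR-126. It read 2.86, 2.96 and 2.96 in the knockout mice, 2.79, 2.76 and 2.92 in the AE9a mice, and 2.97, 3.04 and 3.88 in the normal controls. The added arm thus stood far above all other mice of the passage. The knockout arm did not lie below AE9a alone, so this probe set checks the addition and not the deletion. Egfl7, read by a probe set of its own, was at 5.47, 5.76 and 5.71 with added miR-126 and at 5.29, 5.26 and 5.61 in the knockout, a log2 difference of 0.26 ± 0.21 (SE; limma adjusted p = 1).

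The 6 arrays had medians of 5.40 to 5.48 and SDs of 1.96 to 2.03 on the log2 scale, with correlations of 0.97 to 0.992 within the added arm, 0.964 to 0.988 within the knockout arm and 0.952 to 0.974 between the arms. 2 arrays stood apart in single genes. Knockout mouse 3 had 5.37 of Xist, the RNA of the inactive X chromosome, against 11.31 to 11.45 in the other 5, and the highest levels of the Y-linked genes Kdm5d (6.90), Uty (7.63) and Eif2s3y (8.68). Added mouse 2 had low levels of the MHC class II gene H2-Ab1 (5.65, against 9.77 and 9.39 in added mice 1 and 3) and of immunoglobulin genes. The labels give no sex, and the part of either array in the results was not tested as a cause; counts without each of them follow beside the results.

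At passage 1, 129 of 22180 genes passed (limma, Benjamini-Hochberg adjusted p under 0.05), which is 0.582% of those tested. An unadjusted limma p under 0.05 was held by 1478, 731 of them higher with added miR-126 and 747 higher in the knockout. Of these 129, 96 were higher in the knockout arm (0.433% of all genes) and 33 were higher with added miR-126 (0.149%). The median log2 difference of the genes higher in the knockout was -1.76, that of the genes higher with added miR-126 was 1.38, and that of all genes was 0. All but 4 of the 129 had no overlap between the 3 mice of one arm and the 3 of the other, against 19.4% of all genes. The 129 were chosen on these same arrays, so their lack of overlap follows largely from that choice. Antiviral genes of the interferon response, a few monocyte genes and mast cell proteases stood among the genes higher in the knockout. Immunoglobulin segments and targets of NF-kB stood among those higher with added miR-126.

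**Figure D1:**
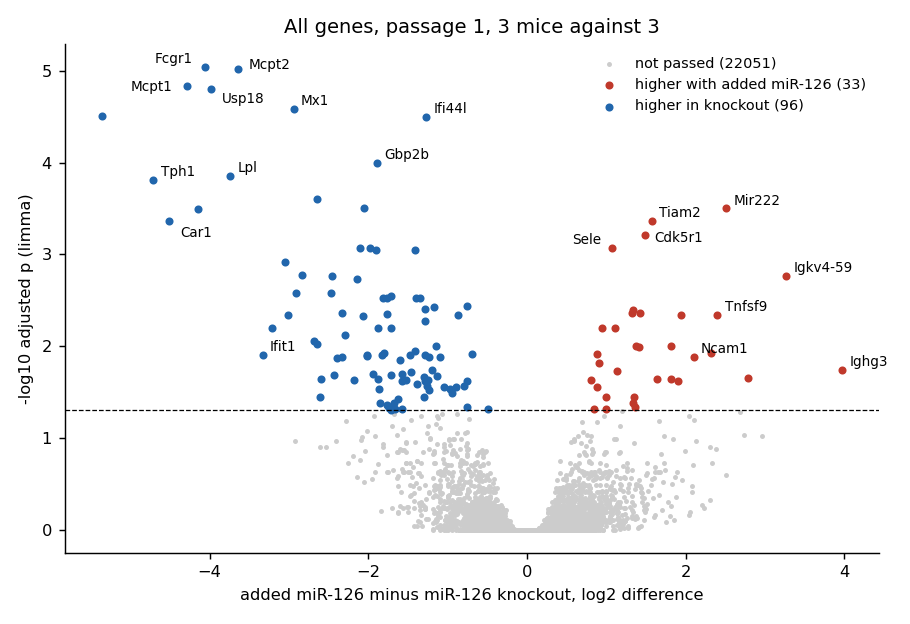
Each point is 1 of 22180 genes; the horizontal axis gives the log2 difference of added miR-126 minus knockout (3 mice against 3), the vertical axis -log10 of the limma adjusted p, and the dashed line an adjusted p of 0.05. The 96 genes higher in the knockout (blue) reach larger differences than the 33 higher with added miR-126 (red).

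The number of passing genes leaned on single mice. It fell to 55 without knockout mouse 2 and to 61 without added mouse 3, was 76 without knockout mouse 1, and was 133 without knockout mouse 3 and 89 without added mouse 2. A fit on the 6 arrays alone passed 178 genes, of which 58 were among the 129, and array weights passed 3696.

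Of the 34 genes listed for the type I interferon response, 31 were measured, and all 31 had lower means with added miR-126 than in the knockout, with a median log2 difference of -1.67. 15 of the 31 passed, all of them higher in the knockout, against 0.433% of all genes in that direction. An unadjusted limma p under 0.05 was held by 27, against 747 of 22180 genes in that direction. The mean log2 level of the list was 7.0, 6.62 and 6.87 in the added mice and 8.39, 9.05 and 8.03 in the knockout mice. AE9a mice lay at 6.46, 6.51 and 6.77 and normal controls at 7.03, 7.05 and 6.76, so the 3 knockout mice were the highest of the 12 mice of the passage. Without knockout mouse 2, the highest of them, 5 of the 31 passed, and without added mouse 2 and added mouse 3 the counts were 6 and 9. All 31 stayed on the same side, with medians from -1.39 to -1.91, when any 1 of the 6 mice was left out.

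**Figure D2:**
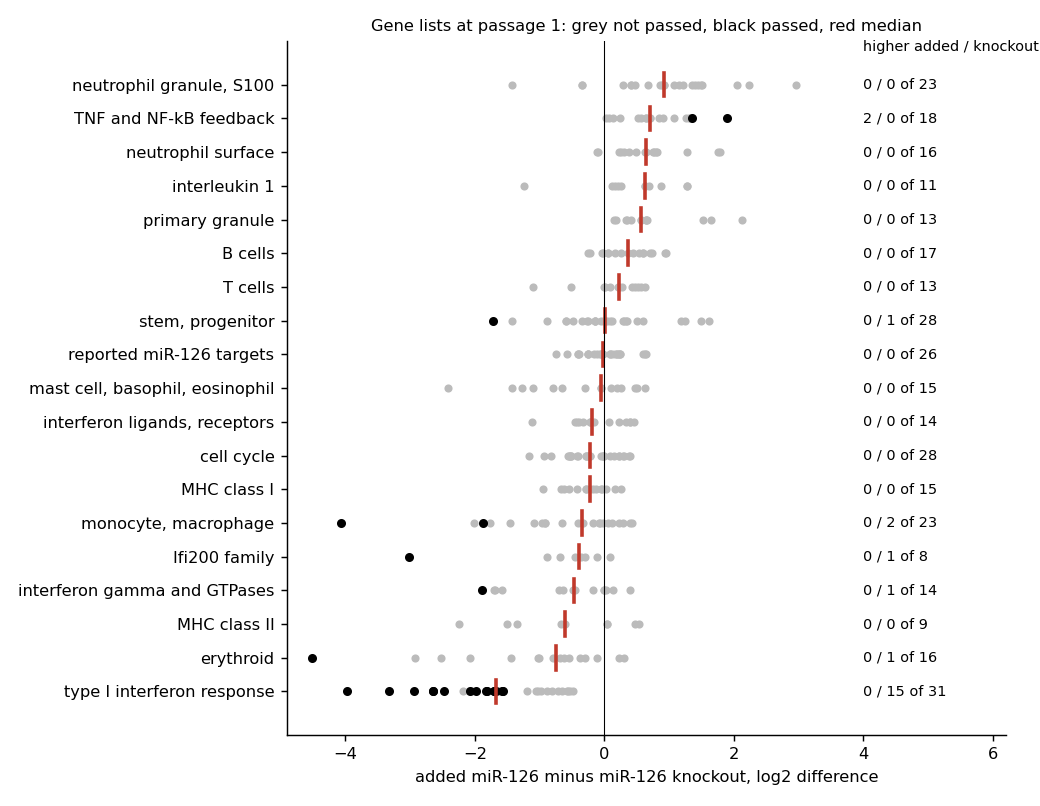
Points are the genes of 19 lists, placed by their log2 difference of added miR-126 minus knockout at passage 1; black points passed, grey points did not, and the red bar is the list median. The numbers at the right count the genes that passed higher with added miR-126 and higher in the knockout; 15 of the 31 type I interferon genes are black, and no other list has more than 2.

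Usp18, which removes ISG15 from proteins and damps the interferon receptor, read 6.85, 6.48 and 6.58 with added miR-126 and 10.43, 11.21 and 10.22 in the knockout. The arms lay far apart, and the AE9a mice (6.85, 6.33 and 7.10) sat among the added mice. The log2 difference was -3.98 ± 0.48 (limma adjusted p = 1.57e-05), 15.8-fold higher in the knockout. It was the largest difference in the list, and it passed with each of the 6 mice left out in turn.

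Mx1, a dynamin-like GTPase that blocks influenza viruses, read 4.55, 4.45 and 4.20 with added miR-126 and 7.48, 8.27 and 6.28 in the knockout (difference -2.94 ± 0.37, adjusted p = 2.6e-05). Its neighbour in function Mx2 gave 5.0, 4.71 and 4.99 against 7.43, 8.65 and 6.57 (-2.65 ± 0.39, adjusted p = 0.00025). In both genes knockout mouse 2 was the highest and knockout mouse 3 the lowest of its arm, yet mouse 3 was above every added mouse.

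Ifit1, which binds viral RNA lacking the host's cap methylation, read 7.74, 6.14 and 7.17 against 10.13, 10.83 and 10.07 in the knockout (-3.33 ± 0.69, adjusted p = 0.0125). It did not pass without added mouse 2, added mouse 3 or knockout mouse 2 (adjusted p up to 0.117). Ifit2, of the same family, was at 4.85, 4.51 and 4.87 against 6.17, 7.13 and 5.93 (-1.67 ± 0.40, adjusted p = 0.0418).

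The oligoadenylate synthetases make the messenger that activates RNase L. Oas2 read 7.28, 6.83 and 7.06 against 9.59, 10.16 and 8.84 (-2.47 ± 0.44, adjusted p = 0.00261), and Oas3 read 7.23, 6.91 and 7.24 against 8.74, 9.50 and 8.29 (-1.71 ± 0.38, adjusted p = 0.0207). Oas1g, outside the list, gave 5.99, 4.26 and 5.14 against 9.59, 10.39 and 7.88 (-4.15 ± 0.62, adjusted p = 0.000323). This family has near-identical copies in the mouse, so a probe set of one member may read another.

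Among sensors and transducers, Zbp1 senses Z-form nucleic acid, Ddx58 encodes the RNA sensor RIG-I, Dhx58 its relative LGP2, and Irf7 the factor that drives interferon genes. The log2 differences were -2.07 ± 0.39 for Zbp1 (adjusted p = 0.00465), -1.71 ± 0.33 for Ddx58 (0.00632), -1.57 ± 0.34 for Dhx58 (0.02) and -1.58 ± 0.36 for Irf7 (0.0241). Irf7 was tight within the added arm at 7.39, 7.41 and 7.23 and read 8.66, 9.62 and 8.49 in the knockout. Tlr3, the endosomal receptor of double-stranded RNA, read 4.24, 4.34 and 4.30 against 5.51, 5.48 and 5.15 (-1.09 ± 0.23, adjusted p = 0.013). Of the 6 fits that left out a mouse, Oas3, Ifit2, Irf7 and Dhx58 each passed in 1 and Tlr3 in 2. Zbp1 and Ddx58 passed in 4, and not without added mouse 2 or knockout mouse 2.

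The list's other passing members were Rtp4 (-2.65), Herc6 (-1.98), Cmpk2 (-1.83) and Xaf1 (-1.81). Herc6, the ligase that attaches ISG15 in the mouse, was close within the added arm at 6.50, 6.55 and 6.40 and read 8.32, 9.08 and 8.00 in the knockout. It passed in all 6 fits with a mouse left out. Members that did not pass had the same sign: Cxcl10, a chemokine of activated T cells, read 8.22, 8.60 and 8.33 against 10.42, 10.73 and 10.29 (-2.09 ± 0.57, adjusted p = 0.105), and Rsad2 (viperin) gave -2.19 ± 0.64 (adjusted p = 0.157).

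**Figure D3:**
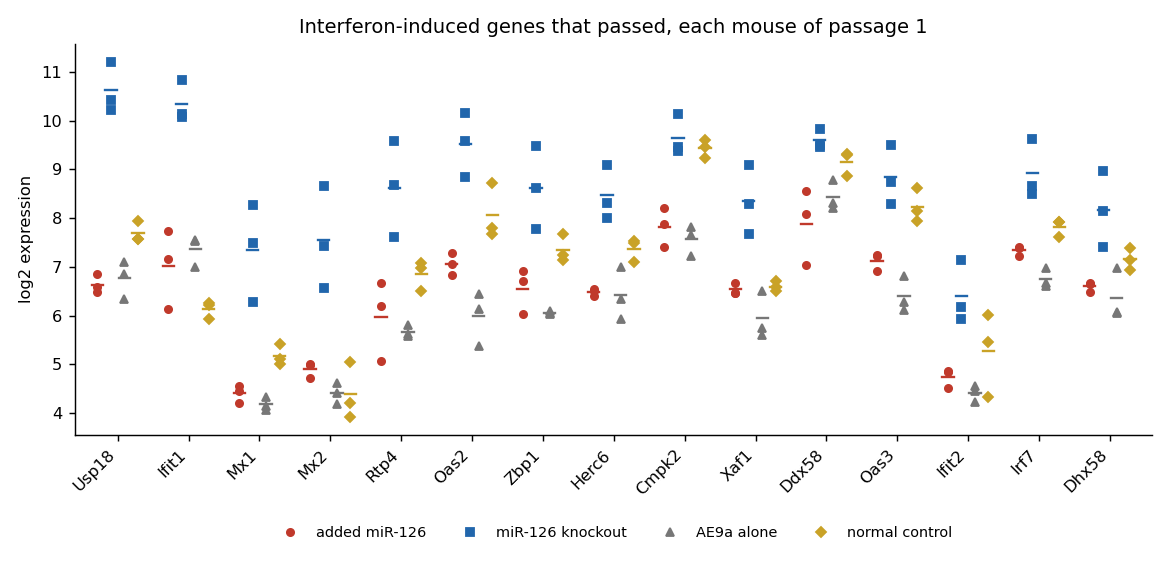
Points are the log2 expression of the 15 interferon-list genes that passed, in each mouse of passage 1 (3 per arm), with a bar at the mean. Knockout mice (blue) lie above the added mice (red) in every one of the 15, and AE9a mice (grey) lie nearer the added mice; in Usp18 the knockout mice read 10.22 to 11.21 and the added mice 6.48 to 6.85.

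In neighbouring interferon families single genes passed, all higher in the knockout, against 0.433% of all genes in that direction. Of 14 genes listed for interferon gamma and its GTPases, 1 passed higher in the knockout and 11 had a negative difference. The gene was Gbp2b, a guanylate-binding GTPase (4.84, 4.93 and 5.0 against 5.91, 7.62 and 6.90; -1.89 ± 0.26, adjusted p = 0.000101). In the Ifi200 family of DNA-binding proteins 1 of 8 passed: Ifi213, at 4.19, 3.85 and 4.36 against 7.09, 8.57 and 5.78 (-3.01 ± 0.57, adjusted p = 0.00462). In the Schlafen family 1 of 6 passed: Slfn5, at 6.07, 6.63 and 6.19 against 8.18, 8.41 and 7.88 (-1.86 ± 0.43, adjusted p = 0.0294). The Schlafen list had 3 positive and 3 negative differences and a median of 0.03. Slfn5 passed in 1 of the 6 fits that left out a mouse (adjusted p up to 0.224), and Ifi213 did not pass without knockout mouse 2 (adjusted p = 0.109). Of the 4 interferon lists together, 18 of 59 genes passed higher in the knockout, 15 of them from the type I list, and 0 higher with added miR-126.

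Of the interferon ligands, receptors and signalling regulators 0 of 14 passed under limma, with a median of -0.19. Ifnb1 gave -0.22 ± 0.20 and Ifna4 -0.43 ± 0.30 (limma adjusted p = 1 for each), so no difference in interferon RNA in these sorted cells was detectable with 3 mice an arm. MHC class I and antigen processing genes likewise had 0 of 15 passing, with 12 of 15 negative and a median of -0.23.

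The interferon arrays share their knockout mice with the comparison of knockout against AE9a alone, where 2.09% of all genes passed in either direction. In that comparison 22 of the 31 listed genes passed higher in the knockout, and the median log2 difference of the 31 was 2.00. Added miR-126 against AE9a alone, where 0.0316% of genes passed, gave a median of 0.26 for the same genes. These comparisons share arrays in pairs, so they are not independent of each other.

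RefSeq promoters, 250 bases before to 50 after the start of a gene, were available for 23 of the 31 listed genes and for 8 of the 15 that passed. The motif searched was GAAANNGAA on both strands, the core of the element found before many interferon-induced genes. A gene was counted when any of its promoters held a match. The motif occurred in 13 of the 23 genes (56.5%) and in 3 of the 8 that passed (37.5%), against 2638 of 27025 genes in all (9.76%). Among all passing genes higher in the knockout it was in 16 of the 72 genes with a promoter (22.2%), and among those higher with added miR-126 in 4 of 16 (25%). The promoters of the 3 passing genes with matches are shown with the matches in capitals, those that overlap as 1 run: Ifit1 at chr19:34640639-34640938 on the plus strand with 3, Oas3 at chr5:120777610-120777909 on the minus strand with 2, and Ddx58 at chr4:40239776-40240075 on the minus strand with 1.
Ifit1: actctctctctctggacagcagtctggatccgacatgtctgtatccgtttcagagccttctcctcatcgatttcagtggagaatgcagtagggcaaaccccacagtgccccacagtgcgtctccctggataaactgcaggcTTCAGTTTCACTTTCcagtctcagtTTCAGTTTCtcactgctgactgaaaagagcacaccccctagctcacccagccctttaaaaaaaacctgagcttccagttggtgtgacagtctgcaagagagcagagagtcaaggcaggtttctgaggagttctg
Oas3: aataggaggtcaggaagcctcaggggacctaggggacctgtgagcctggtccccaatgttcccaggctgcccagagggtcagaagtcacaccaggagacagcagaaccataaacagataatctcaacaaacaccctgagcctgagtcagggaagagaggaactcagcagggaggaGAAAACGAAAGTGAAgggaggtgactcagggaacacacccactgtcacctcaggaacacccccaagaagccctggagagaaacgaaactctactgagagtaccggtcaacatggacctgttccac
Ddx58: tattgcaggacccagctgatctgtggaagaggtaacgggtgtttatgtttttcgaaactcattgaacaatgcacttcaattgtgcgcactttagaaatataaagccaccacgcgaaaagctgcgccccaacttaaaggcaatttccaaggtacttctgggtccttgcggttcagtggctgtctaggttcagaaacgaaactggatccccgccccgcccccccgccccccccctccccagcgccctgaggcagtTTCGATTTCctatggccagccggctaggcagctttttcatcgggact
A match describes these letters only. The other 5 passing genes with a promoter held no match in this window.

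Of 23 listed genes of monocytes and macrophages 2 passed higher in the knockout, against 0.433% of all genes in that direction, 17 had a negative difference, 6 a positive one, and the median was -0.35. Without knockout mouse 1, 1 of the 23 passed. Fcgr1, the high-affinity Fc receptor of monocytes and itself interferon-inducible, read 5.95, 5.15 and 5.91 with added miR-126 and 10.03, 10.34 and 8.82 in the knockout (-4.06 ± 0.45, adjusted p = 9.08e-06). No gene of the comparison had a smaller adjusted p.

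Ccr2, the receptor that brings monocytes out of the marrow, read 8.63, 9.13 and 8.83 against 11.13, 10.66 and 10.43 (-1.88 ± 0.37, adjusted p = 0.00632). It did not pass without knockout mouse 1 (adjusted p = 0.0679). Csf1r, the macrophage growth factor receptor, was at means of 9.96 and 10.14 (-0.18 ± 0.44, adjusted p = 1), so the list's genes did not all differ.

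Outside the list, Lpl, the lipoprotein lipase made by macrophages and adipocytes, read 6.05, 6.41 and 6.30 against 10.38, 9.62 and 9.97 (-3.74 ± 0.52, adjusted p = 0.000138). Maf, a transcription factor of mature macrophages, read 5.57, 5.15 and 5.49 against 7.05, 7.56 and 6.93 (-1.77 ± 0.32, adjusted p = 0.00298). Anpep (CD13), a surface peptidase of myeloid cells, read 6.52, 5.02 and 6.19 against 9.27, 8.84 and 9.24 (-3.21 ± 0.62, adjusted p = 0.00632). The 2 arms did not overlap in any of these 3 genes, which the rule that named Lpl and Anpep required. Of all genes, 19.4% did not overlap. Anpep alone of the 3 lost its call in a fit without a mouse (added mouse 2, limma adjusted p = 0.0642).

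Tph1, Mcpt1 and Mcpt2, each known from mast cells among other cells, were among the 15 largest named differences toward the knockout. Tph1, the rate-limiting enzyme of serotonin synthesis outside the brain, read 4.59, 5.06 and 4.49 with added miR-126 and 9.27, 9.01 and 9.99 in the knockout, 26.2-fold higher (-4.71 ± 0.67, adjusted p = 0.000154). Ddc, the next enzyme of that pathway, read 5.59, 5.78 and 5.72 against 7.16, 7.74 and 8.37 (-2.06 ± 0.31, adjusted p = 0.000314). AE9a mice were at 4.64 to 5.05 of Tph1, beside the added mice.

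Among mast cell proteases, 3 passed higher in the knockout; these and Mitf were picked for their values. Mcpt1 read 3.13, 3.36 and 3.24 against 8.20, 8.17 and 6.24 (-4.29 ± 0.51, adjusted p = 1.45e-05), and Mcpt2 read 3.09, 3.08 and 2.94 against 6.0, 6.97 and 7.05 (-3.64 ± 0.42, adjusted p = 9.64e-06). These 2 genes are close relatives, so their probe sets may share signal. Tpsab1, a tryptase, was highest in knockout mouse 3 (3.80, 4.29 and 4.31 against 5.03, 5.13 and 7.81; -1.85 ± 0.44, adjusted p = 0.042) and passed in 2 of the 6 fits that left out a mouse, that without mouse 3 not among them. Mitf, a transcription factor that mast cells require, read 7.61, 7.74 and 7.94 against 9.40, 8.64 and 9.09 (-1.28 ± 0.27, adjusted p = 0.0126).

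The list of mast cell, basophil and eosinophil markers as such held 0 of 15 that passed, with a median of -0.06. At an unadjusted limma p under 0.05, 3 members were higher in the knockout, against 747 of 22180 genes. Ms4a2, a chain of the IgE receptor, gave -2.41 ± 0.65 (adjusted p = 0.108). Cpa3, the mast cell carboxypeptidase, overlapped at 8.36, 5.92 and 7.86 against 9.09, 6.71 and 9.63 (-1.10 ± 0.74, adjusted p = 0.987), and the basophil protease Mcpt8 gave 0.63 ± 0.50 (adjusted p = 1). The mean of the list overlapped between the arms, at 5.03 to 5.49 with added miR-126 and 5.24 to 6.18 in the knockout.

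In the erythroid list 1 of 16 passed, against 0.433% of all genes higher in the knockout, with 14 negative and a median of -0.74. It was Car1, the carbonic anhydrase of red cell progenitors, at 4.15, 4.95 and 4.90 against 8.55, 9.39 and 9.61, 22.8-fold higher in the knockout (-4.51 ± 0.69, adjusted p = 0.000429). Normal controls had a mean of 9.99 of Car1, near the knockout mice, and AE9a mice 4.71 to 5.02. Rhag, the Rhesus-associated glycoprotein, read 4.49, 4.64 and 4.64 against 6.03, 6.45 and 8.89 and did not pass (adjusted p = 0.126). Gfi1b, a repressor needed for red cells and platelets, passed at 6.68, 6.91 and 6.74 against 8.18, 8.53 and 8.78 (-1.72 ± 0.42, adjusted p = 0.0494) and lost that call whichever mouse was left out. Erythroid list means were 5.23 to 5.29 in the added arm and 5.96 to 6.80 in the knockout, highest in knockout mouse 3.

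The largest difference of all 22180 genes belonged to a transcript named only BC018473, which the rule for named genes passes over and which is given here because of its rank. It read 3.72, 3.94 and 4.11 against 8.78, 7.98 and 11.07 (-5.36 ± 0.68, adjusted p = 3.13e-05). Ctse, an intracellular aspartic protease of the endosome, read 8.48, 6.60 and 8.05 against 10.91, 10.78 and 10.18 (-2.91 ± 0.51, adjusted p = 0.00264). Spint1, an inhibitor of the hepatocyte growth factor activator, read 7.28, 6.21 and 6.96 against 10.25, 9.35 and 8.89 (-2.68 ± 0.53, adjusted p = 0.00872).

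The 2 largest differences among the 33 genes higher with added miR-126 were of the immunoglobulin genes Ighg3 (3.97) and Igkv4-59. 5 of 21 immunoglobulin genes passed and 0 passed in the other direction, against 0.149% of all genes, with 20 of 21 positive and a median of 1.62; this group was set after the values were seen. The kappa segment Igkv4-59 read 9.25, 7.12 and 8.72 with added miR-126 and 4.74, 5.19 and 5.34 in the knockout (3.27 ± 0.56, adjusted p = 0.00172). The heavy chain segment Ighv1-53 read 10.01, 7.94 and 9.57 against 7.33, 7.30 and 7.08 (1.94 ± 0.36, adjusted p = 0.00461).

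The excess came mainly from added mice 1 and 3. Mean log2 levels of the 21 genes were 8.99, 6.45 and 8.51 in the added arm and 6.65, 6.58 and 6.32 in the knockout, so added mouse 2 lay within the knockout range. Ighg3, a heavy chain constant region, read 11.61, 6.46 and 11.43 against 6.0, 5.11 and 6.49 and overlapped. AE9a mice spread from 6.38 to 8.27 and normal controls from 7.77 to 9.15. B cell marker genes moved with it in the same mice: the B cell list means were 6.39, 5.18 and 6.04 in the added arm and 5.64, 5.33 and 5.59 in the knockout, with 0 of 17 passing and a median of 0.37. Without added mouse 1 or added mouse 3, 1 of the 21 passed, and without added mouse 2, 9 did.

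**Figure D4:**
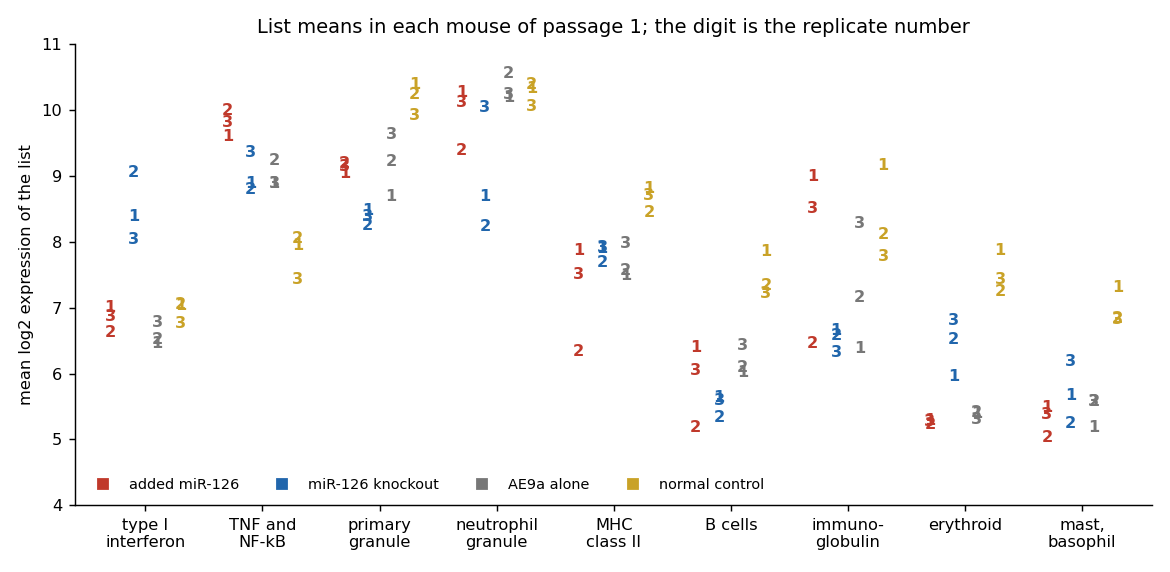
The vertical axis gives the mean log2 expression of each gene list in each mouse of passage 1, coloured by arm; the digit is the replicate number. Knockout mice are highest in the interferon list (8.03 to 9.05), and added mouse 2 lies apart from added mice 1 and 3 in the MHC class II, B cell and immunoglobulin lists.

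Feedback and target genes of TNF and NF-kB leaned toward the added arm. 2 of 18 passed, against 0.149% of all genes in that direction, and all 18 differences were positive, with a median of 0.71 against 0 for all genes. In 4 of the 6 fits that left out a mouse, those without added mouse 2, added mouse 3, knockout mouse 1 or knockout mouse 2, 0 of 18 passed. The count of positive differences was 16 without added mouse 2, and 17 without knockout mouse 2, without knockout mouse 3 and under quantile normalization. Tnfaip3 (A20), the enzyme that shuts NF-kB signalling off, read 10.79, 11.18 and 10.99 against 9.29, 9.38 and 10.20 (1.36 ± 0.33, adjusted p = 0.0456). Nfkbiz, an atypical inhibitor protein that directs a subset of NF-kB targets, read 9.92, 10.39 and 10.13 against 8.03, 7.61 and 9.09 (1.90 ± 0.43, adjusted p = 0.0241). Tnfaip3 passed in 1 and Nfkbiz in 2 of the 6 fits that left out a mouse, and Tnf itself gave 1.31 ± 0.43 (adjusted p = 0.274).

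Tnfsf9 (4-1BB ligand), a costimulator of T cells, read 8.06, 10.00 and 8.90 against 6.71, 6.34 and 6.70 (2.40 ± 0.45, adjusted p = 0.00453). Selp (P-selectin), an adhesion receptor of platelets and endothelium, read 9.53, 10.54 and 9.95 against 7.86, 8.98 and 7.73 (1.82 ± 0.37, adjusted p = 0.00986). Sele (E-selectin), named for its relation to Selp, read 5.13, 5.85 and 5.29 against 4.29, 4.27 and 4.50 (1.07 ± 0.17, adjusted p = 0.000842). Of the megakaryocyte and platelet list, Selp was the 1 of 12 that passed (0.149% of all genes passed in that direction). The list had 8 positive and 4 negative differences and a median of 0.08.

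Ncam1 (CD56), a neural adhesion molecule known on t(8;21) blasts, read 6.64, 7.77 and 7.22 against 5.21, 4.70 and 5.42 (2.10 ± 0.44, adjusted p = 0.0131). It was the 1 of 11 t(8;21) marker genes that passed (0.149% of all genes passed in that direction), and normal controls had more (mean 8.62). Tiam2, an exchange factor for RAC, was the tightest of the set at 7.60, 7.49 and 7.70 against 6.08, 5.98 and 6.04 (1.57 ± 0.24, adjusted p = 0.000429). Cdk5r1, the activator p35 of CDK5, read 8.33, 8.57 and 8.20 against 6.33, 7.23 and 7.08 (1.49 ± 0.23, adjusted p = 0.000614). Tiam2 and Cdk5r1 passed with any 1 mouse left out, while Ncam1 did not in 4 of the 6 fits. Il23a, the p19 chain of interleukin 23, read 6.10, 6.98 and 5.92 against 5.05, 4.81 and 4.92 (1.41 ± 0.29, adjusted p = 0.0101).

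Of 483 microRNA probe sets, 4 passed, all higher with added miR-126 (0.149% of all genes passed in that direction). These probe sets read the primary transcript or hairpin on a gene array, and the mature microRNAs shown above were not measured. Mir222 read 6.82, 8.68 and 7.79 with added miR-126 and 5.14, 5.29 and 5.32 in the knockout, 5.71-fold higher (2.51 ± 0.37, adjusted p = 0.000314). Its neighbour Mir221 read 7.61, 9.61 and 8.66 against 5.69, 6.25 and 5.60 (2.78 ± 0.62, adjusted p = 0.0225). In both, added mouse 2 was the highest, and AE9a mice read 4.56 to 5.57 of Mir222. Mir146, the hairpin of miR-146a, which NF-kB is known to induce, read 4.24, 3.39 and 4.20 against 2.82, 2.54 and 3.13 (1.11 ± 0.22, adjusted p = 0.00632). Mir425 read 4.93, 6.04 and 5.26 against 4.36, 4.49 and 4.38 (1.00 ± 0.23, adjusted p = 0.0354). Of the 4, only Mir222 passed in all 6 fits that left out a mouse.

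Granulocyte genes were higher on average with added miR-126 but did not pass. Of 23 neutrophil granule and S100 genes 0 passed under limma, 20 were positive, and the median was 0.92. An unadjusted limma p under 0.05 in that direction was held by 8, against 731 of 22180 genes. The means of that list overlapped between the arms, at 10.26, 9.39 and 10.11 with added miR-126 and 8.68, 8.23 and 10.03 in the knockout. Of 13 primary granule genes 0 passed, all 13 were positive (12 without added mouse 2), and the median was 0.57. Ctsg, a serine protease of primary granules, read 10.29, 11.16 and 10.69 against 8.55, 8.39 and 8.80 (2.13 ± 0.58, adjusted p = 0.107), and Mpo (myeloperoxidase) 10.64, 10.16 and 10.49 against 8.93, 8.21 and 9.22 (1.65 ± 0.52, adjusted p = 0.233). Knockout mouse 3 stood out in the late granule genes, with 11.27 of Ltf (lactoferrin) against 9.40 and 8.91 in knockout mice 1 and 2. Without it 1 of the 23 granule genes passed and the median was 1.33.

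Of 26 reported targets of miR-126 measured, 0 passed under limma, and the median was -0.02, with differences from -0.75 to 0.65. In each direction 1 had an unadjusted limma p under 0.05, against 731 of 22180 genes toward the added arm and 747 toward the knockout. Spred1, an inhibitor of RAS signalling, read 8.73, 9.01 and 8.88 against 9.37, 8.81 and 9.61 and overlapped (-0.39 ± 0.37, adjusted p = 1; 95% interval -1.15 to 0.36). Errfi1, a feedback inhibitor of EGF receptors, read 10.24, 10.94 and 10.53 against 10.32, 10.57 and 10.33 (0.16 ± 0.52, adjusted p = 1; 95% interval -0.89 to 1.22), and without added mouse 2 its difference was -0.02. The interval of Spred1 includes a 2-fold difference (1 on the log2 scale) toward the knockout, and that of Errfi1 excludes one toward the knockout and includes one toward the added arm. Runx1t1, whose sequence the fusion holds in part, gave 0.44 ± 0.20 (adjusted p = 0.647), and Runx1 gave -0.31 ± 0.25 (adjusted p = 1).

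Of 28 cell cycle genes 0 passed under limma (median -0.23). Of 28 stem and progenitor genes 1 passed, Gfi1b, higher in the knockout, against 0.433% of all genes in that direction. Their differences went both ways, from -1.72 to 1.62 with a median of 0.01. At an unadjusted limma p under 0.05, 5 lay toward the added arm and 4 toward the knockout, against 731 and 747 of 22180 genes. Cd34, a progenitor marker, gave 1.62 ± 0.51 toward the added arm and did not pass (adjusted p = 0.235). T cell genes (0 of 13, median 0.22) and MHC class II genes (0 of 9, median -0.61) likewise held none that passed; H2-Ab1 was below the knockout range in all 3 added mice, furthest in mouse 2.

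Other mice of the 2 arms at passages 2, 3 and 4 show how far the differences recurred. These arrays share no mouse with passage 1, though the passages descend from one another and the model pools the spread. Passages 2 to 4 also differed in array quality: 8 of the 39 arrays had an SD under 1.8 (lowest 1.43), and 7 of these were among the 9 added arrays of passages 2 to 4. Of all genes, 2.24% passed higher in the knockout at passage 2, 25.4% at passage 3 and 8.3% at passage 4, and 1.14%, 32.4% and 5.05% passed higher with added miR-126. Sex-linked genes differed between the arms at passages 3 and 4. Of the 4 measured, 3 passed higher in the knockout at each of these passages (medians -3.97 and -3.92). At passages 1 and 2, 0 of the 4 passed (medians 0.04 and -0.18). The part of array spread, and of the sex-linked difference, in these shares and in the comparisons between passages was not tested.

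Of the 96 genes higher in the knockout at passage 1, 34, 60 and 42 passed in the same direction at passages 2, 3 and 4, and 0, 6 and 1 in the opposite one. Of all genes, 2.24%, 25.4% and 8.3% passed higher in the knockout at these passages, and 1.14%, 32.4% and 5.05% higher with added miR-126. Median log2 differences of the 96 were -0.78, -1.31 and -0.90. Without arrays of SD under 1.8 a single added mouse was left at passage 2, so nothing is concluded from that fit there. With array SD as a covariate, 31 passed at passage 3, and at passage 4 the count was 26 without knockout mouse 3 of that passage. 20 of the 96 passed at all 4 passages, Car1, Fcgr1, Ccr2, Maf, Mitf, Gfi1b, Ctse, Ddc and Nav1 among them.

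Car1 kept differences of -4.88, -5.24 and -5.46 at passages 2, 3 and 4. Fcgr1 gave -1.74, -4.18 and -2.92, and Maf -1.23, -2.26 and -1.97 (limma adjusted p from 9.4e-08 to 0.0253 over both). Nav1, a guidance protein that binds microtubules, was more different later, at -2.62, -3.75 and -3.27 after -1.47 at passage 1.

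Of the 31 type I interferon genes, 4 passed higher in the knockout at passage 2 and 1 passed higher with added miR-126. The median was -0.47. At passage 3, 27 passed higher in the knockout and 1 with added miR-126 (median -2.09). At passage 4, 13 and 0 passed (median -0.90). Of all genes, 2.24%, 25.4% and 8.3% passed higher in the knockout at passages 2, 3 and 4. Usp18 gave -0.91 (adjusted p = 0.328), -3.39 (adjusted p = 4.35e-06) and -2.50 (adjusted p = 0.000526). Mx1 gave -0.11, -1.85 and -0.96 and passed at passage 3 of these.

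The mast cell genes did not recur together. Tph1 was at -5.29 at passage 2 (adjusted p = 1.15e-05), -1.72 at passage 3 (0.0292) and -0.94 at passage 4 (0.345). Mcpt1 was at -1.46, 0.03 and -1.72 and passed at passage 4 of these (adjusted p = 0.0231).

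Of the 33 genes higher with added miR-126 at passage 1, 3, 4 and 3 passed in the same direction at passages 2, 3 and 4, and 1, 10 and 5 in the opposite one. Of all genes, 1.14%, 32.4% and 5.05% passed higher with added miR-126 at these passages, and 2.24%, 25.4% and 8.3% higher in the knockout. Median differences were 0.33, -0.08 and -0.11. Ncam1 was the 1 that passed at all 4 passages, at 2.16, 2.76 and 3.32 after 2.10. Shisa2, an endoplasmic reticulum protein that holds back receptor maturation, was positive throughout, at 1.00 (adjusted p = 0.134), 1.43 (0.00199) and 1.84 (0.000751) after 1.64. Tnfaip3 reversed, at -1.32, -2.42 and -1.76, each with an adjusted p under 0.05 (0.0192, 2.36e-06 and 0.000363). Selp went from 0.17 at passage 2 to -2.49 and -1.98 (adjusted p = 7.01e-06 and 0.000328).

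**Figure D5:**
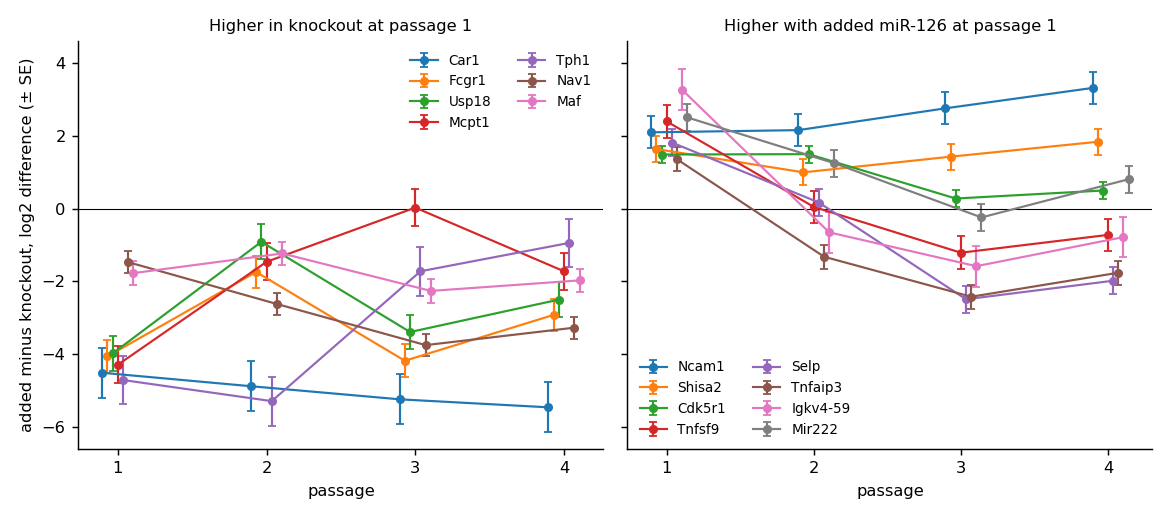
The vertical axis gives the log2 difference of added miR-126 minus knockout (± SE, 3 mice per arm) and the horizontal axis the passage; lines join 1 gene each. Car1 stays between -4.51 and -5.46 and Ncam1 between 2.10 and 3.32, while Tnfaip3 and Selp cross from above to below 0.

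The change of the difference itself, passage 4 minus passage 1, passed in 788 genes (3.55%; limma), 186 of them toward the added arm and 602 toward the knockout. That count was 4032 without added mouse 3 of passage 4, and ran from 458 to 878 when any other 1 of the 12 arrays was left out. The 6 largest named changes toward the knockout were those of Retnlg, a resistin relative of neutrophils (-7.08), Ifitm6, of the interferon-induced membrane protein family (-6.56), Scrg1 (-6.23), the cytokine Il1b (-6.17), Ltf (-6.13) and the chemokine Cxcl2 (-5.96). Ltf had stood at 1.36 ± 0.67 at passage 1 (adjusted p = 0.759) and at -4.78 at passage 4 (adjusted p = 7.64e-06). Of the genes that moved toward the added arm and that the rule for named genes covers, Tmem178, a membrane protein, changed most, from 0.14 to 5.79 (change 5.65, adjusted p = 1.93e-05), followed by Tph1 (3.77), the lectin Clec2m (3.74), the meiotic cohesin Stag3 (3.65), the cystatin Cst7 (3.42) and the RNA-binding Rbm24 (3.32). BC018473, which the rule passes over, changed by 5.64 (adjusted p = 0.00054).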

How the data were processed

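Values were the authors' deposited log2 expression values of 27037 probe sets on Affymetrix mouse gene arrays, 1 colour and 1 array per mouse, made with RMA in Partek 6.0 per the submitters' processing notes; its other settings were not given in those sources. Platform annotation gave 23521 probe sets 1 symbol, 1814 several and 1702 none; only the first were tested. For 1082 genes with over 1 probe set, that of highest mean was kept. limma 3.58.1 (R 4.3.3) fitted 13 group means to 39 arrays, with 26 residual degrees of freedom and empirical Bayes; Benjamini-Hochberg adjustment ran over 22180 genes, and an adjusted p under 0.05 passed. A ± is the standard error (median 0.222). The fit was also run on simulated data with independent noise and the same spread for a gene on all arrays. Arrays of low SD, and dependence between genes or mice, were not simulated, so that run does not bear on them. Of 739 listed symbols in 50 lists, some genes on several, 664 were measured. Members, lists, tests and alternatives were chosen with earlier results of these data known. Genes were named by a rule: the 15 largest differences in each direction that passed without overlap, predicted genes and small RNAs left aside, up to 4 genes of each list by adjusted p, 6 changes in each direction, and 5 genes fixed by name; other genes were named after their values were seen. Same-numbered mice of the 2 arms deviated with correlations of -0.06, 0.17 and 0.14, so the numbers were not taken to pair them. The number of arrays limits the precision.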

Additional observations from a re-analysis of the deposited data

Results flagged for a closer look

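For 26 named genes the difference between the arms was not the same at passage 4 as at passage 1, by the test of that change over all genes (limma, adjusted p under 0.05, 3 mice per arm and passage). Values are the log2 change of added minus knockout, passage 4 minus passage 1. Groups of 3 mice were not tested for single outlying mice.

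Of these genes, 11 that were named as higher with added miR-126 at passage 1 had changed toward the knockout. The immunoglobulin segments changed by -4.05 (Igkv4-59), -3.89 (Igh-VS107), -3.30 (Iglv1) and -2.12 (Ighv1-53). Selp changed by -3.80, Tnfaip3 and Tnfsf9 by -3.12 each, Tiam2 by -2.41, Nfkbiz by -2.35, Tmx4 by -2.08 and Ksr1 by -1.55.

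Of those named as higher in the knockout at passage 1, 4 had changed toward the added arm: Tph1 (3.77), Mcpt1 (2.57), Mcpt2 (2.27) and Mx1 (1.98). Genes of both sets were chosen at passage 1, which the change shares, so part of each change follows from that choice.

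Named for the size of the change itself were 12 genes, of which Tph1 was also named at passage 1. Toward the knockout these were Retnlg (-7.08), Ifitm6 (-6.56), Scrg1 (-6.23), Il1b (-6.17), Ltf (-6.13) and Cxcl2 (-5.96). Toward the added arm they were Tmem178 (5.65), Clec2m (3.74), Stag3 (3.65), Cst7 (3.42) and Rbm24 (3.32), with Tph1 as given.

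Leaving out the 8 arrays of SD under 1.8 left a single added mouse at the later passage. Only sizes of the 26 changes are therefore given for that fit, and no test result. Each change kept its sign, and they ran from -7.46 (Il1b) to 6.58 (Tmem178). Tph1 gave 3.15, Mcpt1 2.26, Mx1 1.97, Mcpt2 1.72, Ksr1 -1.21 and Nfkbiz -1.92.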

How the results depend on the processing

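At passage 1 the counts of passing genes (129 in all, 33 higher with added miR-126, 96 higher in the knockout, and 15 of the interferon list) stayed within 1.5 times under the trended and robust prior, the filter on dim genes, all probe sets, quantile normalization, a 2-fold minimum and the replicate block on all arrays (119 passed). They moved as follows, in the same order. Array weights gave 3696, 1735, 1961 and 28. Array SD as a covariate gave 232, 66, 166 and 17, and leaving out arrays of SD under 1.8 gave 258, 108, 150 and 16. The 12 arrays of passage 1, an alternative chosen after seeing the data, gave 318, 110, 208 and 19. The 6 arrays alone gave 178, 76, 102 and 11, and with the replicate block 83, 26, 57 and 6; of these, 58 and 33 were among the 129. Cyclic loess gave 52 genes higher with added miR-126. Leaving out 1 mouse gave 55 to 133 in all, 10 to 45 higher with added miR-126, 45 to 102 higher in the knockout and 5 to 16 of the interferon list. The causes were not tested.

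Of the genes higher in the knockout at passage 1, those that passed again moved to 22 at passage 2 without arrays of low SD and to 31 at passage 3 with SD as a covariate, and ran from 26 to 49 at passage 4 with 1 mouse left out. Leaving out the low arrays removes the whole added arm at passage 3 and leaves a single added mouse at each of passages 2 and 4. The count above for passage 2 without the low arrays thus rests on a single added mouse, and nothing is concluded from it. No other count of that fit is given for these passages. Of the genes higher with added miR-126, array weights gave 8, 7 and 8 at the 3 passages. At passage 2 cyclic loess gave 5, quantile normalization 5 and SD as a covariate 7. At passage 4 cyclic loess gave 5, and leaving out 1 mouse 2 to 3. The changed differences numbered 10402 with array weights and 458 to 4032 with 1 array left out.

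Of 76 genes that passed and were followed, 0 changed sign under any alternative. Of these, 27 kept their call with the replicate block on 6 arrays, 72 with it on all arrays, and 39 to 64 without 1 mouse. Among genes that did not pass, 3 changed sign when 1 mouse was left out: Errfi1 ran from -0.02 to 0.33, Csf1r from -0.42 to 0.06 and Ifnb1 from -0.55 to 0.03.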
